A study of Mus musculus with 12 samples.

Results

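Immediate early and AP-1 genes were followed in bone marrow progenitors: Jun, Junb, Jund, Fos, Fosb, Egr1, Ier2, Dusp1, Klf6 and Atf3. They were chosen by symbol and are 10 of the 55450 genes in the count table. All 10 passed the filter on low counts and are among the 14346 genes tested. Donor cells were sorted as Lin- (without surface markers of mature blood lineages) and ckit+ (carrying the stem cell factor receptor) from the bone marrow of mice that had received competitive transplants. Total RNA was sequenced in 12 libraries, 3 for each of the genotype labels WT, Tet2KO (Tet2 lost), Id1KO (Id1 lost) and dKO (both lost). All groups share the transplant setting. The design of the knockout alleles, the strain, the age, the time after transplant and the number of mice are not given in the sources used here.

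Immediate early genes are transcribed within minutes of a growth factor, cytokine or stress signal, without need for new protein. Kinases of the MAP kinase cascades act on factors already bound at their promoters, such as the serum response factor SRF with its ELK partners and the cyclic AMP response factor CREB. Proteins of the Fos family pair with those of the Jun family to form AP-1, which binds DNA and controls growth, differentiation and stress genes. Other immediate early products are separate transcription factors, such as EGR1 and KLF6, or end the signal, such as the MAP kinase phosphatase DUSP1. In hematopoietic progenitors these genes are known to respond to cytokines and also to cell isolation.

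The promoters of Fosb, Fos, Jun and Dusp1 are shown as those of the main AP-1 genes below and of a gene that ends the signal. Each stretch is the 250 bases before the RefSeq start on GRCm38.p6, 5′ to 3′ on the gene's strand, and capitals mark matches to the motifs searched.
Fosb, chr7:19310046-19310295 (minus strand): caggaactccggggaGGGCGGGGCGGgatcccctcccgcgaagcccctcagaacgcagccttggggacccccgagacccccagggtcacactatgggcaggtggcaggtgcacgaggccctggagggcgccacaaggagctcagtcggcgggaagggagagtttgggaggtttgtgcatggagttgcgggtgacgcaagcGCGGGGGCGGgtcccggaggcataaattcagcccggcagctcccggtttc
Fos, chr12:85473640-85473889 (plus strand): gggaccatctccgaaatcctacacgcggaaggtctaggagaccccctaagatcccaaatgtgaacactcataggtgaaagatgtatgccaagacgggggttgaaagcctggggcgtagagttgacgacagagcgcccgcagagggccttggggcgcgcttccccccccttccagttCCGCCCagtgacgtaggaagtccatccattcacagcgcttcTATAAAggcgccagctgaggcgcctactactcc
Jun, chr4:95052223-95052472 (minus strand): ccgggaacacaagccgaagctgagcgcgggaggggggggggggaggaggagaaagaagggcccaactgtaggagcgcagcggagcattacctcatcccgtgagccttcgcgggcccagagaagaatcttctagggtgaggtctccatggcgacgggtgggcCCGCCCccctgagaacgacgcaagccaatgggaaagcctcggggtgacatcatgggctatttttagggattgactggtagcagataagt
Dusp1, chr17:26508473-26508722 (minus strand): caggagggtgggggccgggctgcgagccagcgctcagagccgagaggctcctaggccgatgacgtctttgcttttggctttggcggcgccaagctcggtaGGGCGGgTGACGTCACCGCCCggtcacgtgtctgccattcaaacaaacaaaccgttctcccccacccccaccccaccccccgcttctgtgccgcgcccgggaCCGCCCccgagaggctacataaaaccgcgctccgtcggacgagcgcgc
Capitals in Fosb are 2 overlapping GC boxes (GGGCGG) far from the start and an EGR element (GCGGGGGCG), 50 to 42 bases before the start, that overlaps a further GC box. Fos holds a GC box on the other strand (CCGCCC) and a TATA box (TATAAA) 33 to 28 bases before the start. Jun holds 1 GC box, and Dusp1 holds 3 GC boxes and a cyclic AMP response element (TGACGTCA) 143 to 136 bases before the start.

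RefSeq promoters matched 8 of the 10 genes, without Egr1 and Ier2. Both strands were searched in these and in 32536 promoter windows of the same length. A GC box was present in 6 of the 8, against 33.0% of all windows. The cyclic AMP response element occurred in 1 of 8 (Dusp1) against 1.56%, the EGR element in 1 of 8 (Fosb) against 2.6%, and TATAAA in 1 of 8 (Fos) against 12.3%. The AP-1 element TGANTCA, present in 6.73% of windows, had no match in the 8 windows. Nor had the CArG box, the core bound by SRF, present in 1.48%. Bases further from the start, and the promoters of Egr1 and Ier2, were not searched, so sites there would be missed. The RefSeq start used lies 53656 bp from the outermost start in the GENCODE annotation for Dusp1, 34706 bp for Atf3 and 1210 bp for Jund.

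Library depth was 15706407 to 19959183 counts. Titles give 1 sample number per genotype, so the 3 libraries of a genotype may be repeats of 1 cell sample, and p-values measure only the spread between these libraries. Counts differed beyond sampling noise in 12 of 12 pairs of libraries within a genotype. The transcripts of the targeted genes went against the labels: Tet2 was 99.3 ± 2.2 CPM in WT (counts relative to the TMM-scaled library total; mean ± SD, n = 3), and 129.9 ± 2.5 with Tet2KO, 92.0 ± 1.5 with Id1KO and 118.1 ± 3.1 with dKO. Id1 was 1.47 ± 0.27, 3.86 ± 0.42, 3.96 ± 0.34 and 3.93 ± 0.50 CPM in the same order. Gene totals do not show whether the transcripts contain a deleted part, so genotypes below are those on the labels. Kit transcripts were present in every library, and Cd3e, Cd8a and Ly6g had at most 3 counts in each.

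Fosb, an AP-1 subunit that dimerizes with Jun proteins, was lower in the libraries of every knockout label than in WT. Its gene (ENSMUSG00000003545.3) lies on chr7:19302696-19310051, minus strand, in the GENCODE M21 annotation of GRCm38. In the WT libraries it measured 253.5, 238.8 and 246.6 CPM, and in the Tet2KO libraries 200.7, 199.4 and 195.0 CPM. Values were 152.2, 153.7 and 141.7 CPM in Id1KO and 117.1, 104.4 and 122.1 CPM in dKO. The 4 groups did not overlap, and their order was WT, Tet2KO, Id1KO, dKO. The dKO mean of 114.5 ± 9.1 CPM (SD, n = 3) was 46.5% of the WT mean of 246.3 ± 7.3. In edgeR's quasi-likelihood test with Benjamini-Hochberg adjustment over all genes, the log2 fold change from WT was -0.31 ± 0.040 (SE) in Tet2KO (adjusted p = 6e-06). It was -0.72 ± 0.041 in Id1KO (adjusted p = 1.71e-10) and -1.10 ± 0.043 in dKO (adjusted p = 2.71e-13). Fosb was also lower in dKO than in Tet2KO (-0.79 ± 0.044, adjusted p = 5.84e-11) and than in Id1KO (-0.38 ± 0.045, adjusted p = 3.32e-06).

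The interaction contrast, dKO minus Tet2KO set against Id1KO minus WT, asks whether the Id1KO label went with another change beside the Tet2KO label than without it. For Fosb it was -0.07 ± 0.060 (adjusted p = 0.498), with a 95% interval of -0.19 to 0.05. Fosb fell in all 5 pairwise contrasts, which 17 of 14346 genes did. No alternative fit ended any of these 5 calls. In sorted bulk cells, fewer cells that express a gene and less RNA per cell cannot be told apart, for Fosb or for the other genes below.

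**Figure D1:**
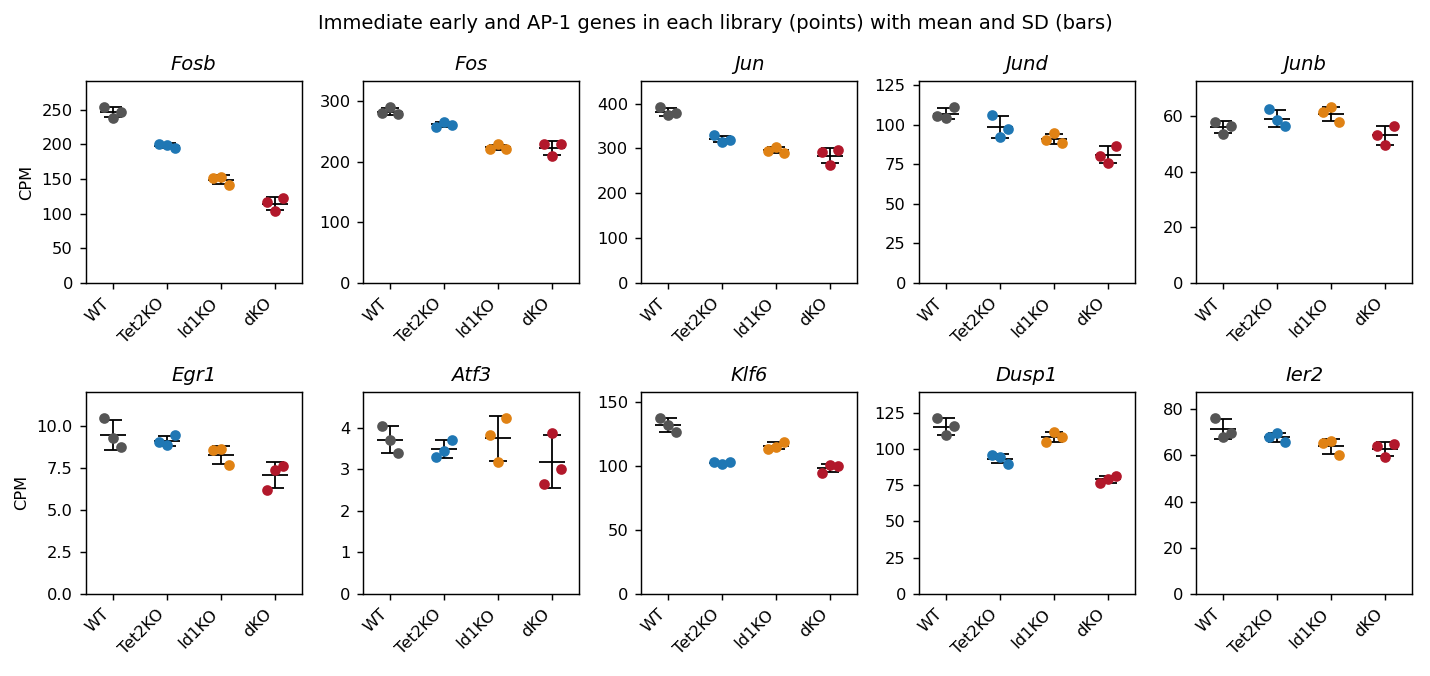
Expression of the 10 genes in CPM (y axis, from 0, own scale per gene) by genotype label (x axis), with 1 point per library and bars for mean ± SD (n = 3 libraries). Fosb steps down from 246.3 CPM in WT to 114.5 in dKO without overlap, whereas Junb and Atf3 overlap between WT and dKO.

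Fos, the prototype of the family (ENSMUSG00000021250.13, chr12:85473890-85477273, plus strand), was also lower with each knockout label, by less. WT libraries gave 279.9, 289.7 and 279.0 CPM, and Tet2KO libraries 257.8, 266.1 and 260.8 CPM. Those of Id1KO gave 221.7, 228.7 and 220.6 CPM, and those of dKO 228.5, 210.1 and 229.4 CPM. The groups formed 3 levels, since Id1KO and dKO overlapped and both lay under Tet2KO, which lay under WT. Compared with WT, Fos changed by -0.34 ± 0.032 in Id1KO (edgeR, adjusted p = 3.28e-07) and -0.35 ± 0.032 in dKO (adjusted p = 1.59e-07). The smaller fall in Tet2KO, -0.11 ± 0.032 (adjusted p = 0.00915), no longer passed without WT replicate 2 (adjusted p = 0.0637). Between dKO and Id1KO the difference was -0.01 ± 0.033 (adjusted p = 0.918; 95% interval -0.07 to 0.06), whereas dKO lay below Tet2KO by -0.23 ± 0.032 (adjusted p = 2.52e-05). The interaction for Fos was 0.11 ± 0.045 (edgeR, adjusted p = 0.128), and 0.14 without dKO replicate 2 (adjusted p = 0.0171).

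Jun, the main partner of Fos in AP-1, is a gene of 1 exon (ENSMUSG00000052684.4, chr4:95049034-95052222, minus strand). It measured 391.4, 375.4 and 377.8 CPM in WT and 329.4, 315.0 and 319.0 CPM in Tet2KO. In Id1KO it measured 294.9, 303.5 and 290.0 CPM, and in dKO 291.2, 263.8 and 295.7 CPM. All libraries with a knockout label lay below all WT libraries, and those of Id1KO and dKO overlapped. From WT the log2 fold changes were -0.25 ± 0.035 with Tet2KO (edgeR, adjusted p = 1.88e-05), -0.37 ± 0.035 with Id1KO (adjusted p = 5.06e-07) and -0.43 ± 0.036 with dKO (adjusted p = 3.34e-08). Jun was lower in dKO than in Tet2KO (-0.18 ± 0.036, adjusted p = 0.000956). Against Id1KO the dKO difference was -0.06 ± 0.036 (adjusted p = 0.249; 95% interval -0.13 to 0.01). The interaction was 0.19 ± 0.051 (adjusted p = 0.0174), so the dKO value lay above the sum of the changes with the single labels. That call was lost without Tet2KO replicate 2 (adjusted p = 0.0583), dKO replicate 1 (0.0534) or dKO replicate 3 (0.0673).

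Jund, a Jun protein known to be expressed in many resting cells, had WT values of 105.3, 104.3 and 110.9 CPM and dKO values of 80.3, 75.9 and 86.7 CPM. The Tet2KO libraries lay at 106.1, 92.2 and 97.1 CPM and the Id1KO libraries at 90.4, 94.7 and 88.6 CPM. WT and dKO were far apart, and Tet2KO overlapped both WT and Id1KO. Jund fell from WT in dKO (-0.40 ± 0.049, edgeR, adjusted p = 6.1e-06) and in Id1KO (-0.23 ± 0.047, adjusted p = 0.00256). In Tet2KO the value was -0.12 ± 0.047 (adjusted p = 0.0611), which passed in 4 alternative fits, with adjusted p of 0.00345 when no filter was used. Jund was lower in dKO than in Tet2KO (-0.28 ± 0.050, adjusted p = 0.000305) and than in Id1KO (-0.17 ± 0.050, adjusted p = 0.0192). The last call was lost without Id1KO replicate 2 (adjusted p = 0.0848), dKO replicate 1 (0.058) or dKO replicate 2 (0.0952).

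Junb, which can oppose Jun at some targets, did not follow Jun and Jund. Its values were 57.6, 53.5 and 56.5 CPM in WT, 62.3, 58.4 and 56.2 in Tet2KO, 61.2, 63.0 and 57.9 in Id1KO, and 53.0, 49.5 and 56.4 in dKO. WT overlapped Tet2KO and dKO, and lay just under Id1KO. None of the contrasts with WT passed the test (log2 fold changes 0.08, 0.12 and -0.08, edgeR, adjusted p = 0.266, 0.112 and 0.335). The dKO libraries lay below Id1KO (-0.20 ± 0.051, adjusted p = 0.00936), a call lost without dKO replicate 2 (adjusted p = 0.0519). Against Tet2KO, whose libraries they overlapped, the difference was -0.15 ± 0.052 (adjusted p = 0.0341), a call lost in DESeq2 (adjusted p = 0.0568) and without Tet2KO replicate 1 (0.163), Tet2KO replicate 2 (0.0627), dKO replicate 1 (0.0673) or dKO replicate 2 (0.154). The interaction was -0.27 ± 0.072 (edgeR, adjusted p = 0.014).

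Junb values could depend on how reads from overlapping genes were assigned, and the sum given below cannot decide this. Exons of Junb and of Prdx2, which encodes a peroxiredoxin, share 173 bp on opposite strands of chr8, out of 2301 exonic bp of Junb. Prdx2 held 3175 to 4962 counts per library against 826 to 1210 for Junb. A sum of both genes is thus mostly Prdx2 and takes in counts from outside the shared 173 bp. It does not show what Junb alone would give under another assignment. The kit marks strand, but the strand setting of the counting is not given in the sources used here. With the counts of both genes added, the Tet2KO difference from WT became -0.26 (edgeR, adjusted p = 4.41e-07), the dKO difference from Tet2KO became 0.14 (adjusted p = 0.000874) and the interaction became 0.20 (adjusted p = 0.0017), each of the opposite sign. The dKO difference from Id1KO no longer passed (-0.06, adjusted p = 0.12), and that from WT did (-0.12, adjusted p = 0.00333). For Jun and Jund, the antisense genes Junos (3 to 21 counts) and Gm11175 (5 to 12 counts) changed no call when added.

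Levels of different genes were compared per length, as CPM per kb of exon. The Fos family (Fos, Fosb, Fosl1 and Fosl2) summed to 164.0 ± 1.7 CPM per kb with WT, 148.3 ± 1.6 with Tet2KO, 123.3 ± 2.6 with Id1KO and 118.3 ± 6.1 with dKO (SD, n = 3). Fos was the most abundant member and Fosb the next. The Fosb share of the family level was 23.1 to 24.8% with WT, 21.2 to 21.9% with Tet2KO, 18.7 to 19.9% with Id1KO and 15.0 to 16.0% with dKO. These ranges did not overlap, and the mean share of Fos went from 73.3% in WT to 80.1% in dKO. The ratio of Fosb to Fos in CPM was 0.871 ± 0.042 with WT, 0.759 ± 0.017 with Tet2KO, 0.667 ± 0.022 with Id1KO and 0.514 ± 0.018 with dKO. Fosl2, a family member with slower kinetics, held 2.62 to 4.42% of the family level on average in the 4 genotypes.

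The Jun family summed to 208.0 ± 4.0 CPM per kb with WT, 185.3 ± 7.6 with Tet2KO, 173.9 ± 5.1 with Id1KO and 160.5 ± 9.9 with dKO. Jun made up 57.5, 54.4, 53.4 and 55.4% of it in the same order, and Jund 30.8, 31.8, 31.4 and 30.2%. The mean Junb share was 11.7% in WT and 13.8 to 15.2% with the other labels, a range that the Prdx2 overlap could touch. These shares moved by fewer percentage points than that of Fosb in its family, whose mean went from 24.1 to 15.5%. The difference between the families was not tested.

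**Figure D2:**
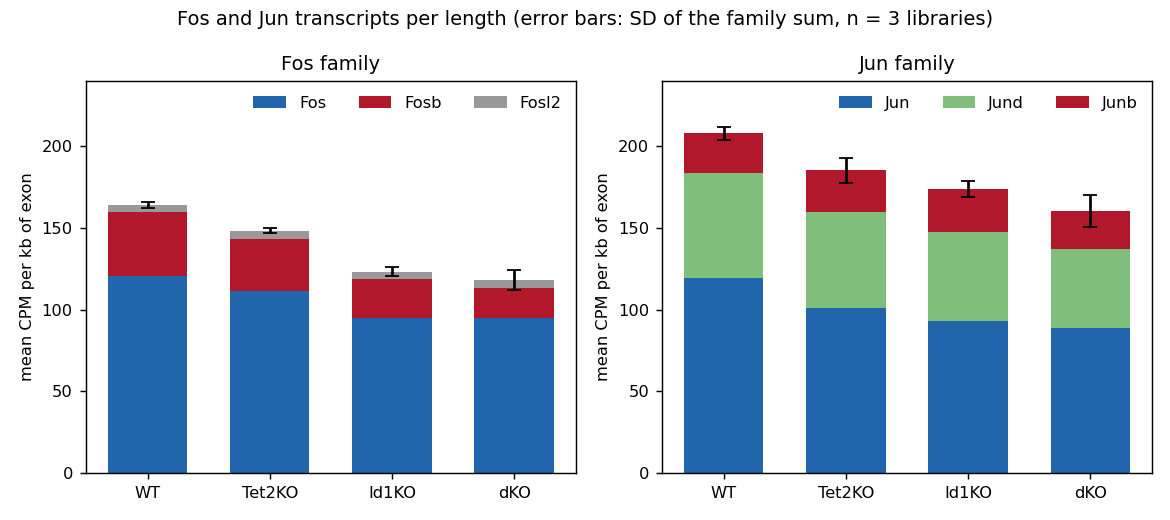
Mean CPM per kb of exon (y axis, from 0) of each Fos family gene (left) and Jun family gene (right), stacked, by genotype label (x axis); error bars are the SD of the family sum (n = 3 libraries). The Fosb segment shrinks from 39.5 in WT to 18.3 CPM per kb in dKO, while Fos goes from 120.3 to 94.7.

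Egr1, a zinc finger factor induced through SRF and known to hold stem cells in quiescence, was scarce, with 98 to 202 counts per library. It measured 10.5, 9.28 and 8.75 CPM in WT and 9.07, 8.88 and 9.48 CPM in Tet2KO. Id1KO libraries gave 8.57, 8.64 and 7.70 CPM, and dKO libraries 6.21, 7.42 and 7.62 CPM. All dKO libraries lay below all others. Egr1 fell in dKO relative to WT (-0.42 ± 0.10, edgeR, adjusted p = 0.00562) and to Tet2KO (-0.37 ± 0.10, adjusted p = 0.0125). The second call was lost without Tet2KO replicate 3 (adjusted p = 0.0508) or dKO replicate 1 (0.0714). From Id1KO the dKO libraries differed by -0.23 ± 0.10 (adjusted p = 0.139). The values for Tet2KO and Id1KO against WT were -0.06 and -0.19 (adjusted p = 0.704 and 0.195).

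Atf3, a stress-induced factor that pairs with Jun proteins, had 42 to 78 counts per library. Its means were 3.72 ± 0.32 CPM with WT, 3.49 ± 0.21 with Tet2KO, 3.75 ± 0.54 with Id1KO and 3.19 ± 0.63 with dKO. All groups overlapped and no contrast passed the test. The dKO difference from WT was -0.22 ± 0.16 (edgeR, adjusted p = 0.368), with a 95% interval of -0.53 to 0.09, which includes the value seen for Jun.

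Klf6, a Krüppel-like zinc finger factor, was lower with each knockout label, and most so with Tet2KO and dKO. It lies on chr13:5861482-5870394 (ENSMUSG00000000078.7, plus strand). WT libraries measured 137.5, 132.4 and 126.4 CPM, and Tet2KO libraries 102.8, 101.2 and 103.0 CPM. Id1KO libraries lay between them at 113.6, 115.1 and 119.1 CPM, and dKO libraries lowest at 94.6, 100.6 and 100.3 CPM. No groups overlapped. The log2 fold change from WT was -0.37 ± 0.034 with Tet2KO (edgeR, adjusted p = 8.72e-08), -0.19 ± 0.034 with Id1KO (adjusted p = 0.000635) and -0.42 ± 0.035 with dKO (adjusted p = 2.71e-08). Klf6 was lower in dKO than in Id1KO (-0.23 ± 0.035, adjusted p = 6.73e-05), and its dKO difference from Tet2KO was -0.05 ± 0.036 (adjusted p = 0.292).

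Dusp1, the phosphatase that removes activating phosphates from p38, JNK and ERK, shared with Klf6 the order WT, Id1KO, Tet2KO, dKO. Its gene (ENSMUSG00000024190.7) spans chr17:26505590-26562128 on the minus strand. WT libraries gave 121.4, 109.4 and 115.6 CPM and Id1KO libraries 104.6, 111.6 and 108.1 CPM, which overlapped. Tet2KO libraries gave 95.7, 94.5 and 89.7 CPM and dKO libraries 76.2, 79.3 and 81.6 CPM, below the former and apart from each other. Dusp1 fell from WT by 0.31 on the log2 scale in Tet2KO (SE 0.040, edgeR, adjusted p = 5.69e-06) and by 0.55 in dKO (SE 0.041, adjusted p = 7.06e-09). In Id1KO the value was -0.09 ± 0.039 (adjusted p = 0.11), which passed with no filter (adjusted p = 0.0436) and without WT replicate 2 (0.0414). The dKO libraries lay below Tet2KO (-0.24 ± 0.042, adjusted p = 0.000303) and below Id1KO (-0.45 ± 0.041, adjusted p = 1.12e-07). The interaction was -0.14 ± 0.057 (adjusted p = 0.102), and -0.19 without WT replicate 1 (adjusted p = 0.0334). Exons of Dusp1 share 11 bp with those of Ergic1 on the opposite strand, which held 1421 to 1870 counts. The sum below takes in all Ergic1 counts, not only those of the shared bases. With Ergic1 counts added, the differences from WT were smaller in Tet2KO (-0.17, edgeR, adjusted p = 5.19e-05) and dKO (-0.31, adjusted p = 1.08e-07), and the Id1KO value passed (-0.09, adjusted p = 0.0217).

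Ier2, a small nuclear protein induced with Fos, moved little. WT libraries measured 76.2, 68.0 and 69.8 CPM, Tet2KO libraries 68.0, 69.8 and 65.7, Id1KO libraries 65.2, 66.2 and 60.1, and dKO libraries 63.9, 59.4 and 65.0. WT lay above Id1KO and dKO and overlapped Tet2KO. The Id1KO value was -0.16 ± 0.048 (edgeR, adjusted p = 0.0285) and the dKO value -0.18 ± 0.049 (adjusted p = 0.0105). Without WT replicate 1 both calls were lost (adjusted p = 0.179 and 0.0728). The Id1KO call was also lost without WT replicate 3 (adjusted p = 0.0506), Id1KO replicate 1 (0.0559) or Id1KO replicate 3 (0.161) and in DESeq2 (0.056), and the dKO call without dKO replicate 2 (0.0638).

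Counted by contrast with WT, 5 of the 10 genes fell with Tet2KO, 6 with Id1KO and 8 with dKO, and none rose. Of all 14346 genes, 16.2% fell and 32.8% were called in either direction in Tet2KO. In Id1KO 7.77% fell of 15.0% called, and in dKO 8.97% fell and 10.2% rose of 19.2% called. The genes that fell in dKO were Jun, Jund, Fos, Fosb, Egr1, Ier2, Dusp1 and Klf6. Those in Id1KO were Jun, Jund, Fos, Fosb, Ier2 and Klf6, and those in Tet2KO were Jun, Fos, Fosb, Dusp1 and Klf6. The median log2 fold change of the 10 was -0.12 with Tet2KO, -0.19 with Id1KO and -0.41 with dKO, beside medians of all genes within 0.01 of 0. These contrasts share the WT libraries.

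Against Tet2KO, 7 of 10 genes were lower in dKO (all genes 13.4% lower, 26.4% called) and 8 had no overlap between the libraries (20.2% of all genes), and against Id1KO 5 of 10 were lower (8.7% lower, 10.6% higher, 19.3% called). The median log2 fold change of the 10 was -0.21 in both contrasts. Jun, Junb, Jund, Fos, Fosb, Egr1 and Dusp1 made up the first count, and Junb, Jund, Fosb, Dusp1 and Klf6 the second. Without dKO replicate 2, whose values were the lowest of its genotype for 6 of the 10 genes, the second count was 3. The interaction was called for Jun and Junb, in opposite directions (14.5% of all genes called, 7.46% higher and 7.03% lower). It was called for 1 gene without Tet2KO replicate 2 or without dKO replicate 3. The dKO mean was the lowest of the 4 for 10 of 10 genes (21.5% of all genes), and WT the highest with dKO the lowest for 8 of 10 (7.54% of all genes).

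**Figure D3:**
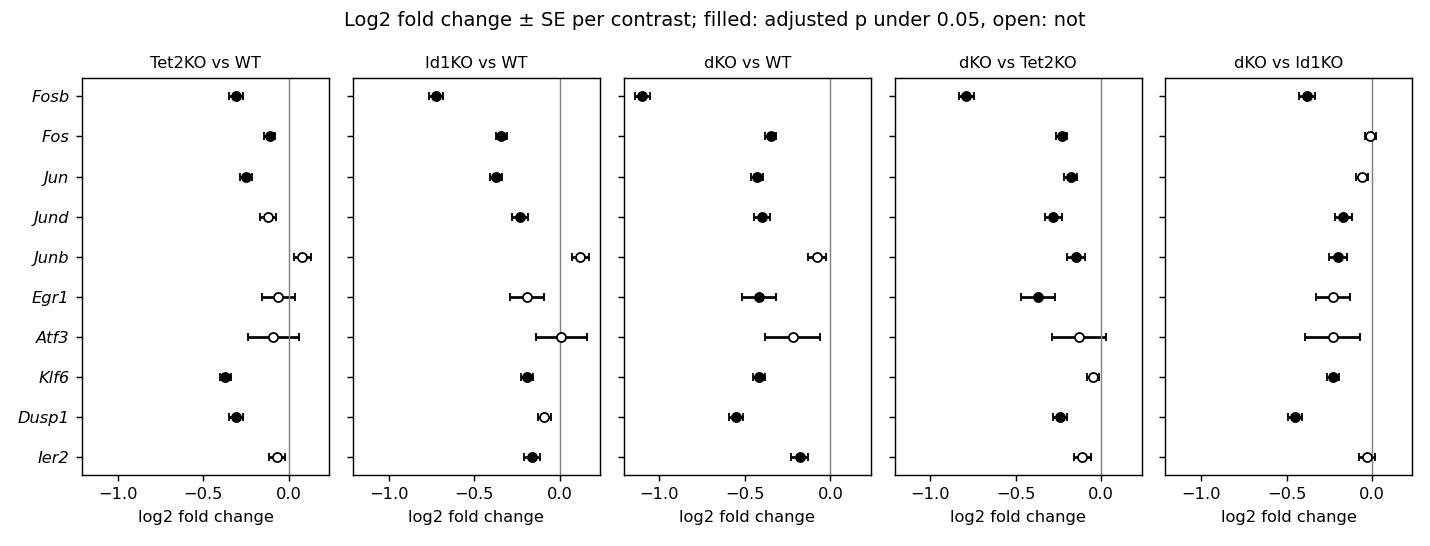
Log2 fold change with SE (x axis) of the 10 genes (y axis) in the 5 pairwise contrasts, from the fit to all 12 libraries. Filled points have an adjusted p under 0.05. In dKO against WT all 10 points lie at or below -0.08, with Fosb at -1.10, and 8 are filled.

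With the 3 libraries of each genotype summed to 1 and additive labels fitted, 1 residual degree of freedom remained and few calls passed. Fosb stayed below the threshold with each label (edgeR, adjusted p = 0.00935 for the Tet2KO label, 0.000255 for the Id1KO label and 0.000387 for dKO against WT). Dusp1 passed for the Tet2KO label (-0.38, adjusted p = 0.00935) and for dKO against WT (-0.54, adjusted p = 0.0239), and Klf6 for the Tet2KO label (-0.30, adjusted p = 0.0243). Jun and Fos did not pass in dKO against WT (adjusted p = 0.0684 and 0.119), nor did Jund, Klf6, Egr1 and Ier2 (0.0682, 0.0622, 0.5 and 0.53).

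Other immediate early genes did not move in 1 direction. Of 23 tested from a list of 28, 6 rose and 6 fell in Tet2KO relative to WT (16.6 and 16.2% of all genes). In Id1KO 4 rose and 7 fell (7.26 and 7.77% of all genes), and in dKO 2 rose and 8 fell (10.2 and 8.97%). Klf2, a factor known for lymphocyte and endothelial quiescence, went from 35.4 ± 1.7 CPM in WT to 21.6 ± 0.58 with Tet2KO, 15.1 ± 0.92 with Id1KO and 15.6 ± 1.6 with dKO. Its log2 fold changes from WT were -0.71, -1.22 and -1.19 (edgeR, adjusted p = 4.74e-08, 7.71e-11 and 1.16e-10), and its interaction was 0.75 (adjusted p = 3.72e-05). Rhob, a small GTPase gene, went from 167.7 ± 4.3 CPM in WT to 138.2 ± 0.77, 127.8 ± 3.1 and 130.3 ± 4.7 (adjusted p = 7.71e-07, 2.27e-08 and 4.66e-08). Klf4, in contrast, was higher than WT in Tet2KO (0.28, adjusted p = 0.0024) and dKO (0.21, adjusted p = 0.0304), and lower in Id1KO (-0.29, adjusted p = 0.00676). The median log2 fold change of the list in dKO was -0.15, against -0.41 for the 10 genes above.

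Among AP-1 partners, 13 of 14 were tested, and in dKO 3 rose and 1 fell relative to WT (10.2 and 8.97% of all genes). Fosl2 was 41.6 ± 0.29 CPM in WT and 41.1 ± 2.0 in Id1KO, but 50.7 ± 2.2 in Tet2KO and 50.5 ± 1.1 in dKO. It thus rose with both labels that include Tet2 (0.29 and 0.28, edgeR, adjusted p = 6.01e-05 and 0.000164), opposite to Fos and Fosb. Atf7 rose with the same labels, from 48.0 ± 3.4 CPM in WT to 63.8 ± 1.6 in Tet2KO and 61.3 ± 3.8 in dKO (adjusted p = 3.7e-06 and 5.46e-05), and was 46.1 ± 1.4 in Id1KO. In Tet2KO 2 of the list rose and 1 fell (16.6 and 16.2% of all genes), and in Id1KO 1 rose and 0 fell (7.26 and 7.77%).

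Of the kinases and factors upstream, 20 of 22 were tested, and 6 rose and 2 fell in Tet2KO (16.6 and 16.2% of all genes). In Id1KO 2 rose and 3 fell (7.26 and 7.77% of all genes), and in dKO 3 rose and 1 fell (10.2 and 8.97%). The gene that fell in dKO was Srf, the serum response factor (-0.14 ± 0.042, edgeR, adjusted p = 0.024). Rps6ka3, which encodes the kinase RSK2, rose with each label, from 80.2 ± 1.4 CPM in WT to 96.7 ± 3.3, 94.7 ± 2.2 and 103.0 ± 3.3 (adjusted p = 6.32e-06, 7.73e-05 and 2.53e-07). Creb1 rose from 123.0 ± 2.1 CPM in WT to 138.9 ± 3.8 in dKO (0.18, adjusted p = 0.000324).

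Feedback genes, 16 tested of 17, gave 3 higher and 3 lower calls in Tet2KO (16.6 and 16.2% of all genes). They gave 2 and 3 in Id1KO (7.26 and 7.77% of all genes), and 0 and 3 in dKO (10.2 and 8.97%). Dusp6, the ERK phosphatase, fell with each label (log2 fold changes -0.67 for Tet2KO, -0.26 for Id1KO and -0.44 for dKO, edgeR, adjusted p = 4.93e-09, 0.00106 and 2.69e-06). Its dKO level lay above that of Tet2KO (0.23, adjusted p = 0.00297), whereas that of Dusp1 lay below it. Tnfaip3, an inhibitor of NF-kB signaling, was lower in Tet2KO and dKO (-0.29 and -0.26, adjusted p = 0.000261 and 0.00174) and higher in Id1KO (0.39, adjusted p = 1.54e-05).

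**Figure D4:**
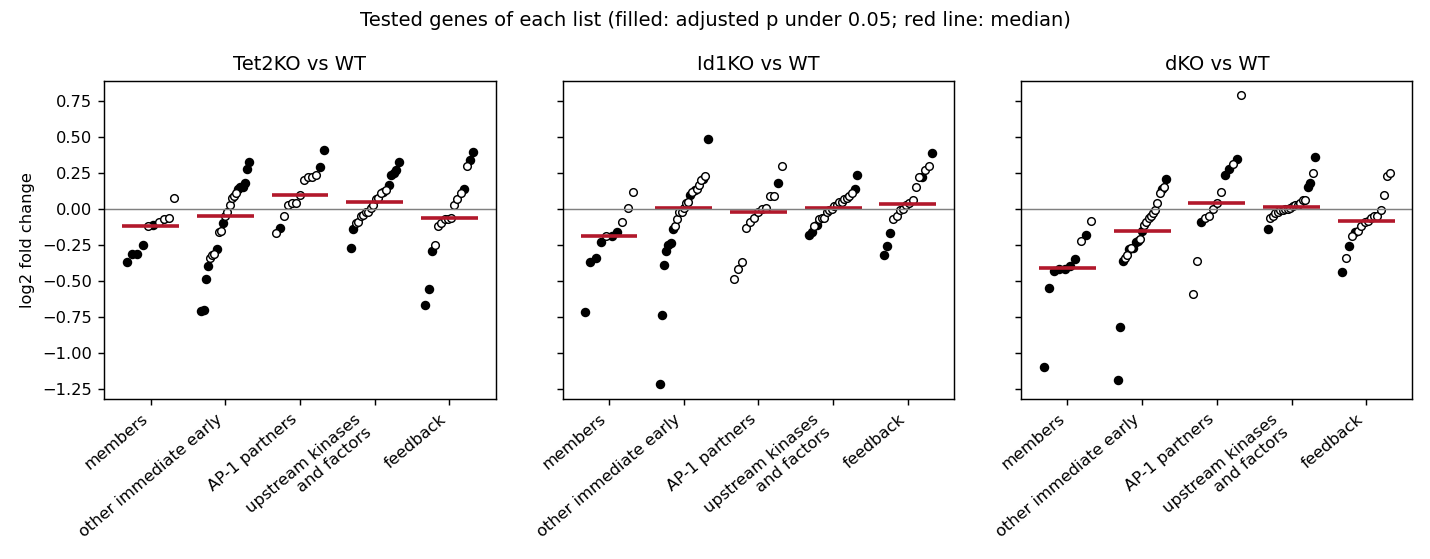
Log2 fold changes (y axis) of the tested genes of the 10 genes and of 4 related lists (x axis), 1 point per gene, 1 panel per contrast with filled points for adjusted p under 0.05 and a red line at the median. In dKO against WT the median is -0.41 for the 10 genes, -0.15 for other immediate early genes and 0.04 for AP-1 partners.

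Genes most like Fos, Jun and Egr1 were sought among 9918 genes by Pearson's r of log2 CPM over the 12 libraries, which share their genotype means and scaling. Fos was most like Spn, a leukocyte sialoglycoprotein gene (r = 0.973), Tap2 (0.963) and Rn7sk (0.953), the 7SK RNA. Jun was most like Snhg12 (0.962), Rhob (0.950) and Snora73a (0.949). Among the genes most like Egr1 were Fads6 (0.908) and Mgst2 (0.890). The genes most like Fos and Jun thus include noncoding RNAs: Rn7sk, a snoRNA and a snoRNA host.

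Small structural RNAs took 8.62 to 8.88% of counts in WT, 6.03 to 6.16% with Tet2KO, 6.0 to 6.5% with Id1KO and 5.74 to 6.66% with dKO, so they too were highest in WT. Rn7sk took 2.51 to 2.68, 2.53 to 2.59, 2.21 to 2.32 and 1.94 to 2.23% in the same order. When libraries were scaled without structural and mitochondrial RNA, the number of the 10 genes called was again 5 with Tet2KO, 6 with Id1KO and 8 with dKO against WT. The part of RNA quality or library composition in the differences was not tested.

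Levels of cell type markers also differed, and without cell counts they do not give the mix of cells. Mpo made up most of the neutrophil granule sum below, and Dntt most of the lymphoid sum. Summed over 10 erythroid markers, the level was 1152 to 1202 CPM with WT, 646.8 to 653.4 with Tet2KO, 1244 to 1261 with Id1KO and 1104 to 1116 with dKO. Of the erythroid markers 10 fell in Tet2KO relative to WT, and in dKO 4 rose and 1 fell. Car1 and Car2 made up most of the sum, and Hbb-bt was 4.25 ± 0.41 CPM in WT and 6.33 ± 0.54 in dKO. Summed monocyte and dendritic markers (8 genes) ran from 1308 to 1356 CPM with WT and 1630 to 1658 with Tet2KO. They ran from 1170 to 1184 CPM with Id1KO and 1478 to 1515 with dKO. Ly6c2 was the largest part of this sum. Of 7 tested, 4 rose and 2 fell in both Tet2KO and dKO, and 0 rose and 5 fell in Id1KO. Mgl2 was 14.5 ± 0.53 CPM in WT, 5.15 ± 1.5 in Tet2KO and 2.58 ± 0.31 in dKO. Summed mature macrophage markers (4 genes) ran from 37.3 to 41.0 CPM with WT and 28.4 to 33.4 with Tet2KO. They ran from 34.9 to 37.3 CPM with Id1KO and 21.7 to 24.5 with dKO. The macrophage sum followed Vcam1 (30.3 ± 1.3 CPM in WT, 12.7 ± 1.2 in dKO), while the macrophage gene Adgre1 was 7.66 ± 0.56 in WT and 9.23 ± 0.53 in dKO. The sum of stem cell markers (6 genes) was also lowest in dKO, at 76.8 to 79.6 CPM against 84.8 to 90.1 in WT. Of the 6, 3 fell there and 0 rose. Hoxa9 was 23.8 ± 0.72 CPM in WT, 13.9 ± 1.3 in Tet2KO and 12.4 ± 0.23 in dKO. Meis1 was 46.0 ± 2.2 CPM in WT and 50.3 ± 1.1 in dKO. Markers of mast cells, basophils and eosinophils (6 genes) summed to 294.7 to 300.8 CPM in dKO and 370.4 to 384.4 in WT. In dKO 4 of them fell and 1 rose. The sum was 461.2 to 466.5 CPM in Id1KO, where 2 rose and 0 fell. Prg2 was its largest part, at 186.7 ± 4.0 CPM in WT, 253.5 ± 3.8 in Id1KO and 131.4 ± 5.2 in dKO. Neutrophil granule markers (9 genes) summed to 14073 to 14129 CPM in WT and 15543 to 15783 in Tet2KO. They summed to 11823 to 12800 CPM in Id1KO and 11637 to 12828 in dKO. The sum was thus lower than in WT with both labels that include Id1 and higher with Tet2KO. In Id1KO 2 of the 9 fell and 0 rose, and in dKO 3 fell and 3 rose. Lymphoid markers (6 genes) summed to 35.4 to 38.3 CPM in WT, 41.5 to 46.5 in Tet2KO, 23.6 to 26.4 in Id1KO and 24.6 to 27.2 in dKO, with 1 of 5 tested lower in each of the last 2. Over all genes, 16.2% fell and 16.6% rose in Tet2KO against WT, 7.77 and 7.26% in Id1KO, and 8.97 and 10.2% in dKO. The part of these markers in the differences was not tested. Stroma and endothelium markers were at or near 0, summing to at most 0.539 CPM, with Col1a1, Pdgfra, Cdh5 and Lepr at no more than 3 counts in every library.

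Heat shock genes, which also mark handling, summed to 4719 to 4985 CPM with WT, 4188 to 4207 with Tet2KO, 5204 to 5318 with Id1KO and 4689 to 4808 with dKO (6 genes). In Id1KO 5 of 6 rose relative to WT and 0 fell (7.26 and 7.77% of all genes). In Tet2KO 2 rose and 3 fell (16.6 and 16.2% of all genes), and in dKO 1 rose and 1 fell (10.2 and 8.97%). Hspa1a, the inducible heat shock gene, was 12.4 ± 0.39 CPM with WT, 43.8 ± 1.8 with Tet2KO, 18.9 ± 0.56 with Id1KO and 8.76 ± 0.68 with dKO. Its order differs from that of Fosb and Fos, which were highest in WT. The mean of Hspa1a was lowest in dKO, as with Fosb and Fos, and so was that of Hspa1b. The other genes of the list were not lowest in dKO. Mean Dnajb1 was 78.7 CPM in WT and 81.1 in dKO, and mean Hsph1 was 50.2 in Tet2KO and 69.7 in dKO. Hspa8 and Hsp90aa1, which made up most of the sum, were lowest in Tet2KO. The part of handling in the differences was not tested.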

How the data were processed

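The authors deposited estimated counts per gene, not normalized, for 12 libraries, and the submitters' processing notes name STAR, RSEM and mm10. Tool versions and the strand setting are not given in the sources used here. Cells were Lin- ckit+ donor cells, and libraries came from a stranded total RNA kit with ribosomal RNA depletion, per the labels' protocols. Annotation was GENCODE M21, matched by all 55450 identifiers.

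Counts were rounded and kept by edgeR's filterByExpr (minimum count 10), which left 14346 genes. Libraries of 15706407 to 19959183 counts were scaled by TMM. All 12 entered 1 quasi-likelihood fit in edgeR with a mean for each genotype. F-tests of 6 contrasts were two-sided, with Benjamini-Hochberg adjustment over all genes and a threshold of 0.05. An exact permutation test of 3 against 3 libraries was not used. The common biological coefficient of variation was 0.0305.

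The members and gene lists were chosen with earlier results of these data known. Named genes were the 10 members, Tet2, Id1, up to 3 called genes per list and contrast with the largest change and at least 5 CPM, and, for Fos, Jun and Egr1, the 3 genes most alike over the libraries, of which 1 is not reported here. Of the genes this gave from the lists, those described were selected after their values were seen, as were the marker genes named. Alternatives were other scalings, DESeq2, other filters, only the libraries compared, a replicate block, summed libraries, each library left out, and overlapping genes on the opposite strand added. The fits were tested on simulated data. Protein sequences were not used here. Versions were R 4.3.3, edgeR 4.0.16, DESeq2 1.42.0, Python 3.11.15 and matplotlib 3.10.9.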

Additional observations from a re-analysis of the deposited data

Results flagged for a closer look

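For 2 of the 10 genes the change with the Id1KO label differed with and without the Tet2KO label, by edgeR's interaction test with Benjamini-Hochberg adjustment over all genes. Of all genes, 14.5% were called in that test. The interaction was 0.19 ± 0.051 (SE) for Jun (adjusted p = 0.0174) and -0.27 ± 0.072 for Junb (adjusted p = 0.014). The Jun call was lost when 1 of 3 libraries was left out. The Junb value became 0.20 when Prdx2 counts were added, a sum that is mostly Prdx2.

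Among other immediate early genes, the interaction was positive for Klf2 (0.75, adjusted p = 3.72e-05), Trib1 (0.44, adjusted p = 0.0115), Rhob (0.31, adjusted p = 9.24e-05) and Ppp1r15a (0.28, adjusted p = 0.00514). It was negative for Ier3 (-0.71, adjusted p = 0.000537) and Klf10 (-0.57, adjusted p = 8.19e-06), which were higher than WT in the libraries of both single labels and not in dKO. Upstream, it was negative for Rps6ka5 (-0.25, adjusted p = 0.00636), Elk3 (-0.22, adjusted p = 0.0321) and Rps6ka3 (-0.15, adjusted p = 0.049). Among feedback genes, it was positive for Dusp6 (0.49, adjusted p = 0.000116) and negative for Nab2 (-0.63, adjusted p = 0.0152), Tnfaip3 (-0.36, adjusted p = 0.00281), Nfkbia (-0.31, adjusted p = 0.00733) and Dusp2 (-0.22, adjusted p = 0.0456).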

How the results depend on the processing

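Over 720 results for the 10 genes with 1 library left out, 693 kept their side of the threshold. Among results called in either fit, 0 changed sign. Some results called in neither did, such as Egr1 in Tet2KO against WT (-0.11 to 0.02) and Atf3 in Id1KO against WT (-0.08 to 0.12). Over 8 scaling, filter, test, sample and block settings, 465 of 470 kept their side, and 0 changed sign among results called in either fit. No scaling tried moved the median of all genes by more than 0.01 from 0. Depth limits Atf3 and Egr1 most.

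With 1 library left out, the genes called among the 10 ran from 4 to 6 in Tet2KO against WT, 5 to 7 in Id1KO against WT, 7 to 8 in dKO against WT, 5 to 7 in dKO against Tet2KO, 3 to 5 in dKO against Id1KO and 1 to 3 in the interaction. Over all genes they ran from 3808 to 4964, 1512 to 2386, 1999 to 2784, 2951 to 3847, 2109 to 2837 and 1582 to 2161. DESeq2 called 1374 genes in Id1KO against WT where edgeR called 2156, and 1286 in the interaction where edgeR called 2078. With libraries summed per genotype, 3, 1, 2, 1 and 3 of the 10 genes were called in the 5 pairwise contrasts, and 572, 22, 109, 22 and 572 of all genes, where the main counts were 4699, 2156, 2754, 3793 and 2762. That fit leaves 1 residual degree of freedom, and neither it nor the fit of only the libraries compared gives an interaction. As the summed fit is additive, Tet2KO against WT and dKO against Id1KO are the same result in it. So are Id1KO against WT and dKO against Tet2KO.

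Among results called in either fit, signs turned for Junb with Prdx2 counts added (-0.26 in Tet2KO against WT, 0.14 in dKO against Tet2KO, 0.20 in the interaction). With these counts the uncalled Junb value in Id1KO against WT also turned, to -0.06. They also turned with summed libraries, without passing the test there, for Ier3 (-0.02) and Klf10 (-0.14) in Tet2KO against WT, Klf10 (-0.08) in Id1KO against WT, and Ppp1r15a (-0.01) and Dusp6 (-0.02) in dKO against Tet2KO; the cause was not tested.

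Replicate numbers share only a number: over 18 pairs of same-numbered libraries, the correlation of deviations from the genotype means ran from -0.393 to 0.392 and exceeded 0.1 in 8, and 3 of 12 libraries correlated best with their own number. With the replicate block, 5, 6, 8, 7, 5 and 2 of the 10 genes were called in the 6 contrasts, as without it, and 4523, 1952, 2565, 3592, 2576 and 1871 of all genes.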
